A study of Homo sapiens with 12 samples.

Results

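The genes described here copy DNA: they mark and license replication origins, fire them, synthesise and join the new strands, and supply the nucleotides. They were chosen by name as DNA replication genes outside the MCM helicase family, and 44 of 44 listed genes were found among the 19775 genes of the arrays, through 76 probe sets that each name only that gene. The cells were IMR-90, fibroblasts from human lung that stop dividing after a limited life in culture, and their RNA was hybridised to 12 Affymetrix arrays, 3 for each of 4 groups. Young cells at 20% oxygen were at population doubling 30 and senescent cells at 20% oxygen at population doubling 48. At 3% oxygen the young cells were at population doubling 30 too, and the old cells, labelled nonsenescent, at 53. No genotype, transgene or drug differed between the groups, and all came from a single cell line. A difference in incubator between the oxygen levels could not be told apart from oxygen. The labels call the replicates biological without naming separate cultures, so p-values measure the spread between these arrays, which may in part be technical.

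An origin is first bound by the origin recognition complex (ORC1 to ORC6), and CDC6 and CDT1 then load the MCM helicase onto it, a step called licensing that geminin (GMNN) blocks by binding CDT1. The kinase CDC7 with its activator DBF4 then fires the origin, and CDC45 and the GINS complex turn the loaded helicase into an active one. Polymerase alpha with primase starts each strand, polymerases epsilon and delta extend the leading and lagging strands on the sliding clamp PCNA, which the RFC complex loads, and FEN1, DNA2 and LIG1 process and join Okazaki fragments. Many of these genes are transcribed late in G1 and in S phase under E2F transcription factors, so in cultured fibroblasts their RNA is widely read as a sign of cycling cells, and fewer cycling cells and less RNA per cell cannot be told apart in bulk RNA. The deposited log2 signals had been centred on each probe set's own median across arrays, and a gene's value below is the mean over its probe sets, so groups can be compared while the level of a gene is unknown. A change is written with its standard error after ± (an SD is named as such), each group has n = 3 arrays, and a gene is called at an adjusted p under 0.05 in limma fitted over all genes.

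Reference promoter sequences of the strongest responders show what lies upstream of these genes. RefSeq promoters on GRCh38.p14 were matched for 39 of the 44 genes, and the 250 bases before the start site are shown for RRM2 and POLE2, which had the largest differences of the late-passage and of the young oxygen comparison. Capitals mark CCAAT boxes, searched as CCAAT on both strands.
RRM2, chr2:10122489-10122738, plus strand: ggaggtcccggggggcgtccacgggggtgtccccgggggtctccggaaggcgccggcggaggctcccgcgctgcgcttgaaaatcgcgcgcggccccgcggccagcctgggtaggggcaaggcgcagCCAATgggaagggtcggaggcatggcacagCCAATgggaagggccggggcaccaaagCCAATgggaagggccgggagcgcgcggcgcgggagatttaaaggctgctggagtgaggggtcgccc
POLE2, chr14:49688215-49688464, minus strand: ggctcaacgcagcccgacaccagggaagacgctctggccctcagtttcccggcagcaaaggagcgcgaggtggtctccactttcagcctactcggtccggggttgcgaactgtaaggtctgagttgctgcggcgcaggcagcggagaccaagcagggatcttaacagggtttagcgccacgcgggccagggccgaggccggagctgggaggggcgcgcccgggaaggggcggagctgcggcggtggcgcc
RRM2 held 3 CCAAT boxes, which begin 123, 93 and 66 bases before the start site, and POLE2 had no match. A CCAAT box stood in 19 of the 39 gene promoters (48.7%), against 32.0% of 35116 promoters of the same length. E2F letters were searched as TTTCCCGC, TTTCGCGC, TTTGCCGC and TTTGGCGC on both strands, and no such match overlapped a CCAAT match. They stood in 10 of the 39 promoters (25.6%) and in 2.79% of all 35116. The matches of genes that the results below turn on are shown with 10 bases on either side, the E2F letters in capitals.
GINS2, chr16:85688968-85688995, minus strand: tctcgccgtgGCGGGAAAacggcggccg
POLA1, chrX:24693771-24693798, plus strand: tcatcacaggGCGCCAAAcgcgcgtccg
PCNA, chr20:5126664-5126691, minus strand: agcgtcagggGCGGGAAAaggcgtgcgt
RFC3, chr13:33818084-33818111, plus strand: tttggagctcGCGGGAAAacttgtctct
TYMS, chr18:657604-657631, plus strand: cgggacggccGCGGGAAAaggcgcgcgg
CDT1, chr16:88803744-88803771, plus strand: cagggcgcccGCGGGAAAtttggcggga
POLE, chr12:132687343-132687370, minus strand: gggtgggagcGCGCCAAAtttctcccct
The TYMS match lay 39 to 32 bases before the start site and the PCNA match 59 to 52 bases before it. Among genes higher at 3% oxygen in both comparisons below, 5 of 24 promoters held the E2F letters (20.8%), and among genes called in neither 4 of 11 did (36.4%). The letters TTTGAA of the cell cycle homology region (CHR) stood in 1 of the 39 promoters and in 13.3% of all. A match is a description of these letters in this window, and base composition was not taken into account.

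Most of these RNAs were higher in the cells at 3% oxygen. At 3% oxygen 29 of the 44 were higher than at 20% oxygen in young cells, where 4.96% of all genes were called higher, and none was called lower in limma (1 at an unadjusted p under 0.05; without young replicate 1 at 3% oxygen 28 were higher and 1, ORC5, lower). Old cells at 3% oxygen against senescent cells at 20% also gave 29 higher, where 6.59% of all genes were, and none lower (0 at an unadjusted p under 0.05). The late-passage comparison sets nonsenescent cells at population doubling 53 against senescent cells at 48, so in it oxygen, growth state and doublings cannot be told apart. Its groups share no arrays with those of the young comparison. Both comparisons use the same spread per gene, estimated over all arrays, so their calls are not independent. The genes called higher in both numbered 27, which is 93.1% of either list; over all genes 493 (2.49%) were higher in both, or 50.3% and 37.8% of the genes called in the young and the late-passage comparison. The median log2 difference was 0.85 in young cells and 0.93 at late passage, beside -0.03 and -0.02 over all genes. In 29 of the 44 genes all 6 arrays at 3% oxygen stood above all 6 at 20%, as in 3.57% of all genes.

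**Figure D1:**
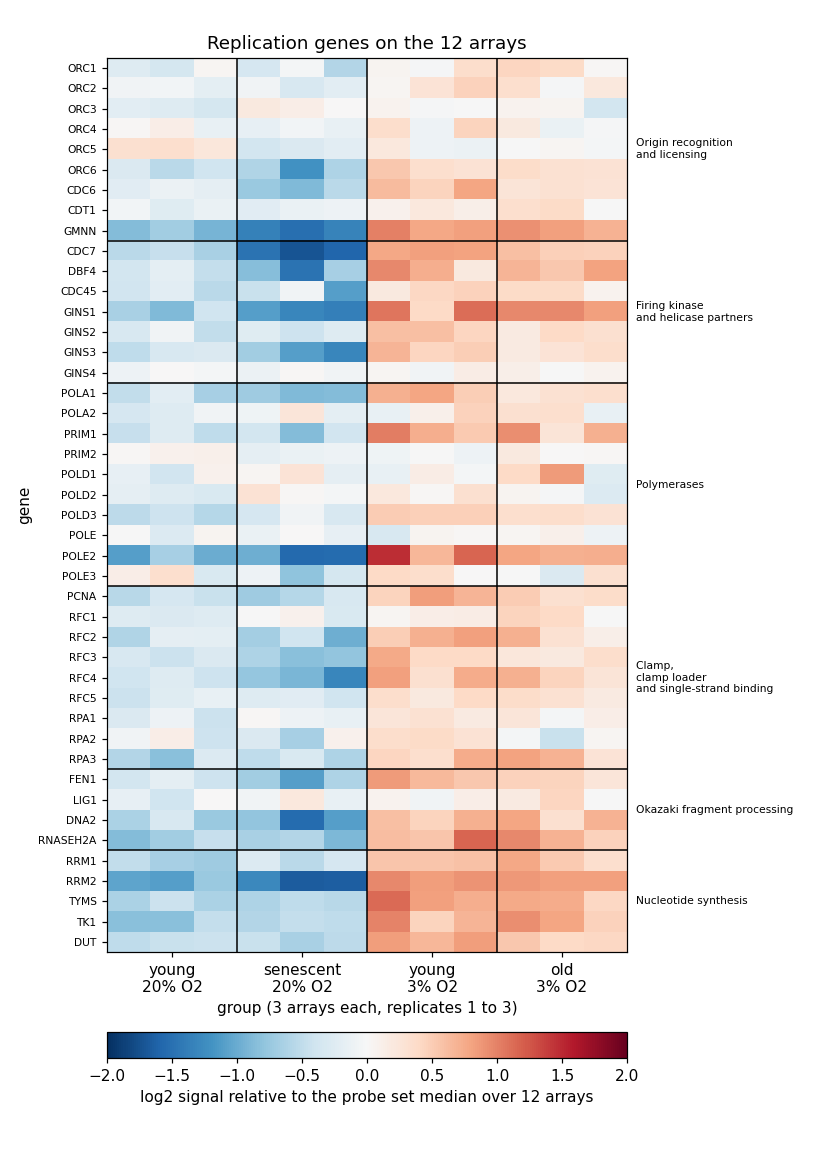
Log2 signal of the 44 replication genes (rows, grouped by role) on the 12 arrays (columns, 3 per group), relative to the probe set median. The arrays at 20% oxygen are mostly below 0 (blue) and those at 3% oxygen mostly above (red), and the oxygen levels are fully separate in 29 of the 44 genes. ORC5, PRIM2, POLE and GINS4 are among those with no such split.

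Origin recognition and licensing genes gave 3 of 9 called higher at 3% oxygen in young cells and 5 of 9 at late passage. Geminin (GMNN), the inhibitor of CDT1, stood at -0.86, -0.69 and -0.93 in young cells at 20% oxygen, at -1.34, -1.51 and -1.33 in senescent cells, at 1.00, 0.78 and 0.82 in young cells at 3% and at 0.92, 0.82 and 0.69 in old cells at 3%. Its arrays at the oxygen levels lay far apart, with no overlap, and the senescent arrays were the lowest. The difference was 1.70 ± 0.10 in young cells (3.24-fold, adjusted p = 3.28e-07) and 2.20 ± 0.10 at late passage (4.61-fold, adjusted p = 3.16e-08). The helicase loader CDC6 stood at -0.22, -0.12 and -0.18 in young cells at 20%, at -0.74, -0.88 and -0.54 in senescent cells, at 0.63, 0.44 and 0.79 in young cells at 3% and at 0.26, 0.30 and 0.27 in old cells. All 4 groups were separate from one another. It was higher at 3% oxygen by 0.80 ± 0.11 in young cells and 1.00 ± 0.11 at late passage (1.74-fold and 1.99-fold). ORC6, the smallest subunit of the origin recognition complex, was higher by 0.80 ± 0.15 and 1.14 ± 0.15.

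The other origin recognition subunits moved little. ORC2, ORC3 and ORC4 were called in neither oxygen comparison, with differences between -0.20 and 0.37. ORC1, the ATPase subunit that comes and goes with the cell cycle, was called at late passage only (0.60 ± 0.17, adjusted p = 0.0352; in young cells 0.32 ± 0.17, adjusted p = 0.282), and so was CDT1 (0.40 ± 0.11, adjusted p = 0.0365; 0.27 ± 0.11, adjusted p = 0.155). The ORC1 call ended without young replicate 1 at 20% oxygen, senescent replicate 1 or 3, or old replicate 1 or 2 (adjusted p from 0.0525 to 0.15). The CDT1 call ended without any senescent array, old replicate 1 or 2, young replicate 1 or 3 at 20% or young replicate 3 at 3% (0.0515 to 0.154), and when those 2 groups were fitted alone with replicate pairs as a block (adjusted p = 0.0556). The probe sets of CDT1 gave 0.10 and 0.69 at late passage and -0.27 and 0.81 in young cells. ORC5 lay in the opposite direction in young cells (-0.29 ± 0.10, adjusted p = 0.0911).

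Of the genes of origin firing and the active helicase, 6 of 7 were higher in each oxygen comparison; GINS4 was called in neither (0.09 ± 0.09 and 0.11 ± 0.09). The kinase CDC7 stood at -0.54, -0.46 and -0.64 in young cells at 20% oxygen, at -1.48, -1.73 and -1.58 in senescent cells, at 0.78, 0.83 and 0.81 in young cells at 3% and at 0.60, 0.47 and 0.46 in old cells. No 2 groups overlapped, and senescent cells were lowest. CDC7 was higher at 3% oxygen by 1.35 ± 0.09 in young cells (2.56-fold, adjusted p = 8.63e-07) and by 2.11 ± 0.09 at late passage (4.32-fold, adjusted p = 2.05e-08). Its activator DBF4 stood at -0.37, -0.19 and -0.47 in young cells at 20%, at -0.85, -1.48 and -0.67 in senescent cells, at 0.96, 0.73 and 0.19 in young cells at 3% and at 0.68, 0.55 and 0.81 in old cells. Senescent replicate 2 and young replicate 3 at 3% lay apart from their groups, and the oxygen levels still did not overlap. DBF4 was higher by 0.97 ± 0.21 and 1.68 ± 0.21 (1.95-fold and 3.20-fold).

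GINS1, a GINS subunit, stood at -0.64, -0.89 and -0.40 in young cells at 20% oxygen, at -1.10, -1.30 and -1.37 in senescent cells, at 1.07, 0.40 and 1.11 in young cells at 3% and at 0.96, 0.95 and 0.81 in old cells. Young replicate 2 at 3% was the lowest array at that oxygen level and still above all arrays at 20%. The differences were 1.50 ± 0.18 and 2.17 ± 0.18 (2.84-fold and 4.50-fold). GINS3 was higher by 0.91 ± 0.14 and 1.31 ± 0.14. GINS2 was higher by 0.84 ± 0.12 and 0.60 ± 0.12 as a mean of 3 probe sets that differed: in young cells they gave 2.01, 0.61 and -0.11. CDC45, which joins GINS in the helicase, was higher by 0.74 ± 0.21 in young cells (adjusted p = 0.0366) and 0.82 ± 0.21 at late passage (adjusted p = 0.0223). The call in young cells ended without any 1 of the 6 young arrays or senescent replicate 1 (adjusted p from 0.0501 to 0.133), and the late call without senescent replicate 3 or old replicate 1 or 2 (0.0545 to 0.0843).

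Of the 10 polymerase genes 5 were called higher in young cells and 4 at late passage, and each complex held called and uncalled subunits. POLE2, the second subunit of polymerase epsilon, stood at -1.10, -0.67 and -0.99 in young cells at 20% oxygen, at -0.98, -1.56 and -1.54 in senescent cells, at 1.47, 0.67 and 1.17 in young cells at 3% and at 0.79, 0.71 and 0.72 in old cells. The oxygen levels were separate, and the age groups overlapped at each level. POLE2 was higher at 3% by 2.02 ± 0.20 in young cells (4.07-fold, adjusted p = 2.02e-05) and 2.10 ± 0.20 at late passage (4.29-fold, adjusted p = 1.4e-05). The catalytic subunit POLE differed by 0.00 (95% interval -0.27 to 0.26) and 0.11 (-0.16 to 0.37), and the histone-fold subunit POLE3 by 0.20 and 0.43, with no call. POLE has 1 probe set, so an unchanged RNA cannot be told from a probe set that does not respond. In polymerase alpha-primase, the catalytic POLA1 stood at -0.49, -0.21 and -0.66 in young cells at 20%, at -0.71, -0.88 and -0.86 in senescent cells, at 0.71, 0.79 and 0.49 in young cells at 3% and at 0.21, 0.31 and 0.33 in old cells. All 4 groups of POLA1 were separate, with old cells below young cells at 3%. POLA1 was higher at 3% by 1.11 ± 0.12 and 1.10 ± 0.12, with POLA2 (0.36 ± 0.18 and 0.18 ± 0.18) not called. The catalytic primase subunit PRIM1 stood at -0.46, -0.25 and -0.50 in young cells at 20%, at -0.36, -0.86 and -0.39 in senescent cells, at 1.02, 0.72 and 0.53 in young cells at 3% and at 0.92, 0.25 and 0.71 in old cells. Its age groups overlapped at each oxygen level and the oxygen levels did not. PRIM1 was higher by 1.16 ± 0.19 and 1.17 ± 0.19, and its partner PRIM2 was not called (-0.13 ± 0.08 and 0.21 ± 0.08). The 4 probe sets that name PRIM2 together with its relative PRIM2BP were left out.

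In polymerase delta the accessory POLD3 was higher by 1.00 ± 0.09 and 0.57 ± 0.09, with 1.75 and 0.25 on its separate probe sets in young cells. The catalytic POLD1 was not called (0.14 ± 0.23 and 0.29 ± 0.23). POLD2 was called in young cells only (0.44 ± 0.12, adjusted p = 0.033; late passage -0.17 ± 0.12, adjusted p = 0.558), and that call ended without any young array at 20% or young replicate 1 or 3 at 3% (adjusted p from 0.0679 to 0.115). Whether the difference of POLE2 and that of POLE are unlike each other was not tested, since each gene has its own probe sets.

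**Figure D2:**
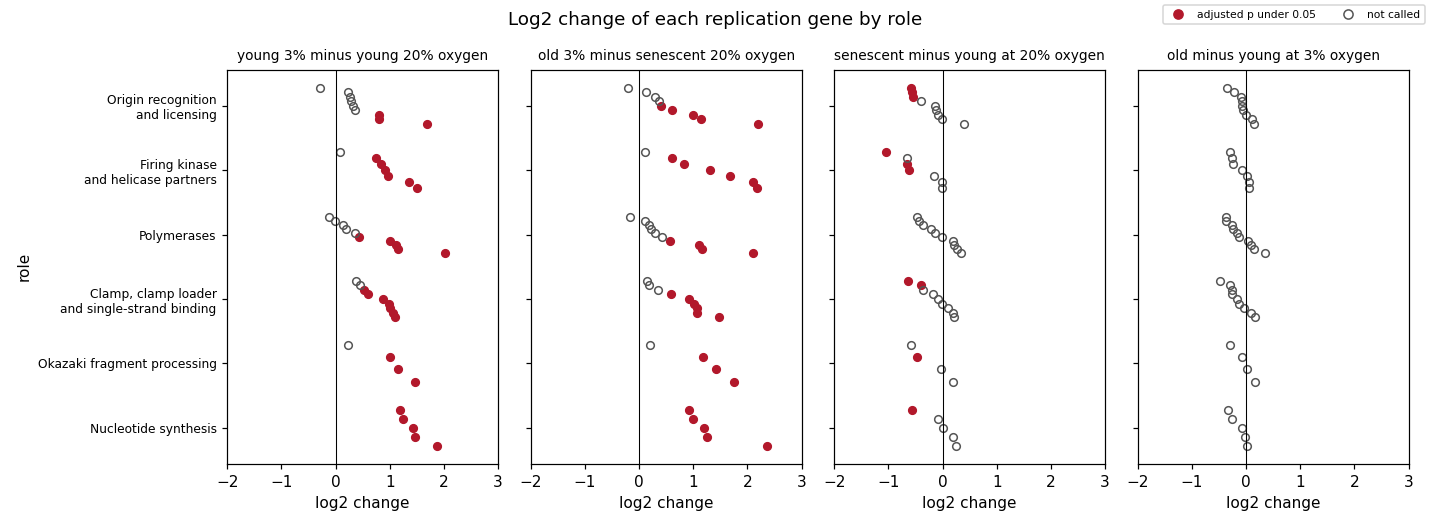
Log2 change of each replication gene (x axis) by role (y axis) in 4 comparisons; filled points are called at an adjusted p under 0.05 and open points are not. Filled points lie to the right of 0 in both oxygen comparisons, to the left of 0 in the senescent comparison at 20% oxygen, and there is none in the passage comparison at 3% oxygen.

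Of the 9 clamp, clamp loader and single-strand binding genes, 7 were higher in young cells at 3% oxygen and 6 at late passage. PCNA stood at -0.55, -0.34 and -0.44 in young cells at 20%, at -0.71, -0.57 and -0.31 in senescent cells, at 0.44, 0.84 and 0.68 in young cells at 3% and at 0.51, 0.31 and 0.36 in old cells. Young and senescent arrays overlapped, and so did young and old arrays, while the oxygen levels did not. PCNA was higher by 1.10 ± 0.13 in young cells (2.14-fold) and 0.93 ± 0.13 at late passage (1.90-fold). The small loader subunits RFC2, RFC3, RFC4 and RFC5 were called in both comparisons, from 0.58 for RFC5 to 1.47 for RFC4 at late passage, and the large subunit RFC1 in neither (0.37 ± 0.13 and 0.36 ± 0.13). RFC5 came to 1.36, 0.26 and 0.17 on its 3 probe sets in young cells, and RFC3 to 2.08, 1.00 and -0.04 on its 3 at late passage. RFC4 had its lowest values in senescent cells, at -0.78, -0.92 and -1.31, against -0.39, -0.26 and -0.42 in young cells at 20%, 0.82, 0.32 and 0.74 in young cells at 3% and 0.71, 0.44 and 0.26 in old cells.

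Of the single-strand binding protein RPA, the smallest subunit RPA3 was higher by 1.07 ± 0.17 in both comparisons. The largest, RPA1, was called in young cells (0.52 ± 0.11, adjusted p = 0.00627) and not at late passage (0.19 ± 0.11, adjusted p = 0.403), and RPA2 in neither. In Okazaki fragment processing 3 of 4 genes were higher in both: the flap nuclease FEN1 (1.01 ± 0.14 and 1.19 ± 0.14), the nuclease DNA2 (1.15 ± 0.19 and 1.75 ± 0.19) and RNASEH2A, the catalytic subunit of an RNase that acts on RNA in DNA (1.46 ± 0.18 and 1.42 ± 0.18). DNA2 stood at -0.63, -0.31 and -0.74 in young cells at 20%, at -0.78, -1.55 and -1.11 in senescent cells, at 0.61, 0.45 and 0.71 in young cells at 3% and at 0.79, 0.31 and 0.70 in old cells. RNASEH2A stood at -0.86, -0.70 and -0.46, at -0.65, -0.59 and -0.90, at 0.62, 0.56 and 1.17 and at 0.96, 0.70 and 0.46 in the same groups. In both genes the oxygen levels were separate; senescent cells lay below young cells for DNA2 and among them for RNASEH2A. The ligase LIG1 was not called (0.23 ± 0.14 and 0.20 ± 0.14).

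All 5 nucleotide synthesis enzymes were higher at 3% oxygen in both comparisons. RRM2, the regulated subunit of ribonucleotide reductase, stood at -1.06, -1.11 and -0.74 in young cells at 20%, at -1.28, -1.66 and -1.65 in senescent cells, at 0.97, 0.84 and 0.90 in young cells at 3% and at 0.87, 0.82 and 0.81 in old cells. The gap between the highest array at 20% and the lowest at 3% was 1.56. RRM2 was higher by 1.87 ± 0.12 in young cells (3.66-fold, adjusted p = 5.75e-07) and 2.37 ± 0.12 at late passage (5.16-fold, adjusted p = 7.05e-08). Its partner RRM1 was higher by 1.19 ± 0.12 and 0.93 ± 0.12.

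Thymidylate synthase (TYMS) stood at -0.64, -0.42 and -0.63 in young cells at 20%, at -0.62, -0.50 and -0.56 in senescent cells, at 1.14, 0.82 and 0.73 in young cells at 3% and at 0.76, 0.75 and 0.41 in old cells. The senescent arrays lay within the range of the young ones. TYMS was higher by 1.46 ± 0.13 and 1.20 ± 0.13 as a mean of 3 probe sets, which gave 2.10, 1.84 and 0.44 in young cells. TK1, which salvages thymidine, stood at -0.83, -0.83 and -0.48 in young cells at 20%, at -0.59, -0.47 and -0.50 in senescent cells, at 0.99, 0.44 and 0.68 in young cells at 3% and at 0.93, 0.78 and 0.47 in old cells, again split by oxygen alone. It was higher by 1.42 ± 0.16 and 1.25 ± 0.16, and the dUTPase DUT, which keeps uracil out of DNA, by 1.24 ± 0.09 and 0.99 ± 0.09.

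**Figure D3:**
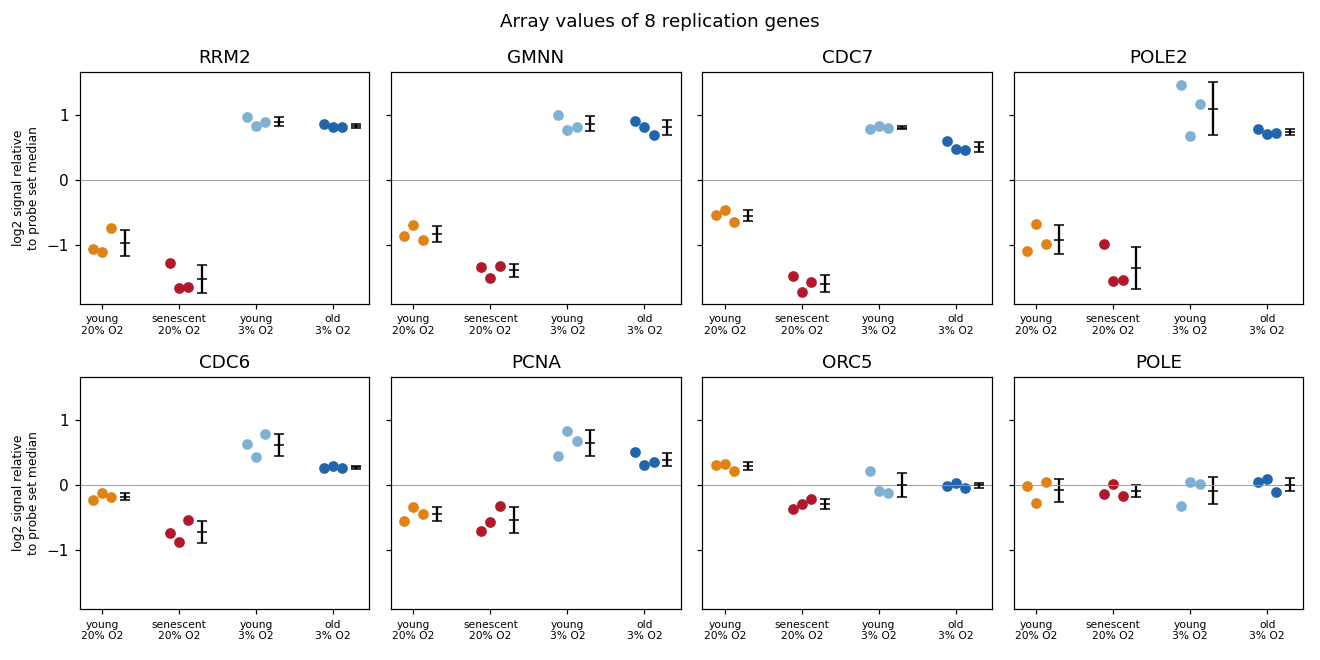
Log2 signal of 8 replication genes on each array, relative to the probe set median, by group (points: 3 arrays; bars: mean and SD). RRM2, GMNN, CDC7, POLE2, CDC6 and PCNA are higher on every array at 3% oxygen than at 20%, ORC5 is highest in young cells at 20% oxygen, and POLE shows no separation.

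Senescent cells had less of some of these RNAs than young cells at the same 20% oxygen. Genes called lower included 3 of origin recognition and licensing, among them the inhibitor GMNN, and 3 of origin firing and the active helicase. In senescent cells 10 of the 44 genes were lower, where 7.84% of all genes were called lower, and none was higher, against 4.67% of all genes (3 at an unadjusted p under 0.05). The median log2 change was -0.13, beside 0.04 over all genes. CDC7 fell by 1.05 (SE 0.09, 2.07-fold, adjusted p = 1.09e-05), GINS3 by 0.66 (SE 0.14, adjusted p = 0.00746) and GINS1 by 0.61 (SE 0.18, adjusted p = 0.0405). ORC5 fell by 0.58 (SE 0.10), GMNN by 0.56 (SE 0.10) and CDC6 by 0.54 (SE 0.11). The clamp loader subunits RFC4 and RFC3 fell by 0.65 (SE 0.17) and 0.40 (SE 0.11, with -1.03, -0.24 and 0.07 on its probe sets), and FEN1 by 0.48 (SE 0.14).

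For ORC5, an ATPase-like subunit of the origin complex, young cells at 20% oxygen were highest at 0.32, 0.34 and 0.22, senescent cells lowest at -0.37, -0.29 and -0.21, and arrays at 3% between, from -0.12 to 0.21. RRM2 fell by 0.56 (SE 0.12, adjusted p = 0.00846) on the mean of probe sets that gave -1.06 and -0.06, and on the second, which varied more over the arrays, it was not called (adjusted p = 0.923). After quantile normalization RRM2, GINS1 and RFC3 were not called (adjusted p = 0.0577, 0.191 and 0.0506). None of the 10 polymerase genes was called (2 higher and 4 lower at an unadjusted p under 0.05), and TYMS (0.00 ± 0.13), PCNA (-0.09 ± 0.13) and DUT (-0.08 ± 0.09) were not either. ORC3 was higher by 0.39 ± 0.12 and just missed the threshold (adjusted p = 0.0514).

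Some of these calls lay near the threshold and ended when 1 array was left out, in some cases an old array outside the comparison. The count of 10 became 6 without young replicate 1 at 20% oxygen, where 5.48% of all genes were called lower in place of 7.84%. It ranged from 6 to 11 over all 12 arrays left out in turn. RFC4 was not called without young replicate 1 or 2 (adjusted p = 0.0605 and 0.0874) or senescent replicate 3 (0.0955). GINS1 was lost without young replicate 1 or 3, any senescent array, or old replicate 1 or 2 (0.0538 to 0.156). RFC3 was lost without any young array, senescent replicate 2 or 3, or old replicate 2 (0.0502 to 0.128), and FEN1 without any young array, senescent replicate 1 or 2, or old replicate 2 (0.0502 to 0.147).

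Passage at 3% oxygen left no called gene. In old against young cells at 3%, 0 of the 44 passed in limma, where 1.74% of all genes did. At an unadjusted p under 0.05 in limma 8 were lower and 0 higher, beside 1127 lower and 1688 higher of all 19775 genes. The median was -0.08, beside 0.05 over all genes, and changes ran from -0.49 (RPA2) to 0.35 (POLD1). The 3 old arrays lay below all 3 young arrays in 10 of the 44 genes, as in 6.23% of all genes. Among them were DUT (-0.33 ± 0.09, adjusted p = 0.119), POLA1 (-0.38 ± 0.12, adjusted p = 0.191), CDC6 (-0.34 ± 0.11, adjusted p = 0.185) and CDC7 (-0.29 ± 0.09, adjusted p = 0.182). CDC6 rested on 1 of its probe sets, with -0.66 and -0.02.

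Whether the passage change differed between the oxygen levels was tested as an interaction. Passage led to senescent cells at population doubling 48 at 20% oxygen and to nonsenescent cells at 53 at 3%. In the interaction oxygen, growth state and doublings therefore cannot be told apart. The interaction was called for 2 of the 44 genes, both more negative at 20% oxygen, where 4.37% of all genes were called in that direction. For CDC7 the passage change was -1.05 at 20% and -0.29 at 3%, a difference of -0.76 ± 0.13 (adjusted p = 0.00385). For ORC5 the changes were -0.58 and 0.00, a difference of -0.58 ± 0.14 (adjusted p = 0.0308). The ORC5 call ended without young replicate 1 or 2 at 20%, senescent replicate 1 or 2, young replicate 2 or 3 at 3%, or old replicate 1 or 2 (adjusted p from 0.0577 to 0.0824), and the CDC7 call after quantile normalization (-0.47, adjusted p = 0.152). GMNN gave -0.51 ± 0.15 (adjusted p = 0.0617) and RRM2 -0.49 ± 0.17 (adjusted p = 0.134; 0.0493 without senescent replicate 1). Further members at the other end were POLD2 (0.60 ± 0.17, adjusted p = 0.0569) and ORC3 (0.48 ± 0.17, adjusted p = 0.132).

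**Figure D4:**
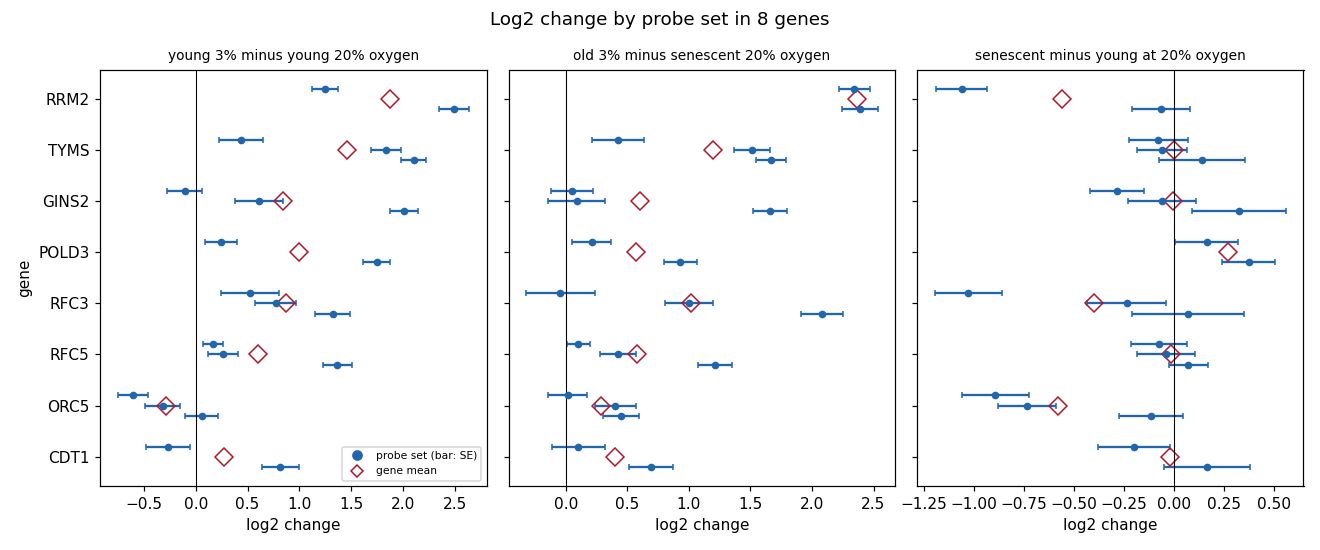
Log2 change by probe set (points, with standard errors) and gene mean (diamonds) for 8 replication genes with several probe sets, in 3 comparisons. GINS2, TYMS, POLD3 and RFC5 each have a probe set near 0.5 or below beside others well above it in young cells, and RRM2 falls in senescent cells on 1 of its probe sets.

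Probe sets of 1 gene did not always give the same change. Of the 44 genes 23 had 1 probe set and 21 had several. Among the 14 genes called in young cells with several probe sets, signs differed in 1 (GINS2) and the spread between probe sets exceeded 1 log2 unit in 5, namely GINS2, TYMS, POLD3, RRM2 and RFC5. At late passage the signs differed in 1 of 14 (RFC3), and the spread exceeded 1 log2 unit in 4, namely GINS2, RFC3, RFC5 and TYMS. The GINS2 probe sets ran from 0.05 to 1.66 there. Among genes not called, signs differed in young cells for CDT1, GINS4 (-0.08 to 0.33), ORC5 (-0.61 to 0.05), POLA2 (-0.12 to 0.80) and RFC1 (-0.28 to 0.79). A probe set that does not respond pulls the gene mean toward 0.

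Other replication genes, outside the set, were counted in the same fit. Of 10 MCM proteins, 7 were higher at 3% oxygen in young cells and 6 at late passage, with the helicase subunit MCM7 at 1.32 ± 0.13 and 1.36 ± 0.13; in senescent cells at 20% oxygen 1 was lower, MCM6, which fell by 1.09 (SE 0.12). In old against young cells at 3% oxygen 2 of the 10 were lower, among them MCM6, which fell by 0.79 (SE 0.12). There 0.759% of all genes were called lower. Of 24 other fork and initiation proteins, 10 were higher and 1 lower in young cells at 3%, and 11 higher and none lower at late passage, with topoisomerase TOP2A at 2.02 ± 0.13 and 2.11 ± 0.13 and the fork protein WDHD1 at 1.35 ± 0.10 and 1.34 ± 0.10. Of 20 other nucleotide supply enzymes, 6 were higher and 1 lower in young cells and 4 higher and 2 lower at late passage. In senescent against young cells at 20% oxygen 3 of the 24 fork proteins were lower and none higher in limma (1 higher at an unadjusted p under 0.05), and of the 20 nucleotide supply enzymes 6 were lower and 2 higher. In that comparison, to which the MCM count of 1 also belongs, 7.84% of all genes were called lower and 4.67% higher. The p53-induced subunit RRM2B, a relative of RRM2, rose in senescent cells by 1.22 ± 0.10, and the CTP synthase CTPS1 fell by 1.20 (SE 0.13).

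Markers of cycling cells moved with the oxygen differences. Of 21 proliferation markers, 14 were higher and 1 lower at 3% oxygen in young cells and 14 higher and 2 lower at late passage, with MKI67 at 1.64 ± 0.14 and 1.68 ± 0.14. The mean of the 21 per array ran from -0.64 to -0.57 in young cells at 20%, from -0.45 to -0.42 in senescent cells, from 0.45 to 0.51 in young cells at 3% and from 0.53 to 0.76 in old cells. Without CDKN1A, a CDK inhibitor that marks arrest, the mean of the other 20 ran from -0.67 to -0.59 in young cells at 20%, from -0.56 to -0.53 in senescent cells, from 0.50 to 0.55 in young cells at 3% and from 0.56 to 0.79 in old cells. Over the 44 replication genes the mean was -0.35 ± 0.03 in young cells at 20%, -0.54 ± 0.06 in senescent cells, 0.45 ± 0.05 in young cells at 3% and 0.35 ± 0.10 in old cells (SD, n = 3). In senescent against young cells at 20% oxygen 4 of the markers were higher and 1 lower, where 4.67% and 7.84% of all genes were. MKI67 differed by 0.16 ± 0.14 (adjusted p = 0.635 in limma) and CDKN1A by 1.76 ± 0.11. The part of cell cycling in the differences of the replication genes was not tested. Values centred per probe set cannot show whether fibroblast markers are present; of 8 such markers 1 was higher and 3 lower in senescent cells at 20% oxygen, 1 higher and 2 lower in young cells at 3% oxygen and 2 higher and 2 lower in old against senescent cells, and none of 4 epithelial, 4 endothelial and 3 immune markers was called in limma in any group comparison (1 epithelial marker lower at an unadjusted p under 0.05 in old against young cells at 3%, and 1 in old against senescent cells).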

How the data were processed

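The authors deposited 1 table of log2 values for 12 arrays, made with RMA per the submitters' processing notes (version not given in the sources used here). Since RMA gives log2 values, that base is assumed. The table holds 54675 probe sets, and each has a median of 0 over the arrays (largest absolute median 5e-07), so the values are centred; array medians run from -0.02 to 0.05. Scanner files were not used here. Probe sets naming 1 gene (41091, of which 41037 matched a current symbol by Entrez identifier) were averaged per gene, giving 19775 genes. A limma model (version 3.58.1, R 4.3.3; lmFit and eBayes) with 1 mean per group took in the 12 arrays; p-values were two-sided and Benjamini-Hochberg adjusted across genes within a comparison, and 0.05 was the threshold. The fit was tested on simulated data. The genes, lists and roles were chosen with earlier results of these data known. All 44 genes may be named; array values are given for up to 4 called genes per role and comparison, among those with the largest change, and for PCNA, RRM2, TYMS and CDC6; ORC5 was added for its interaction. Of other lists those with the largest change are named, with MKI67, MCM6 and CDKN1A. CD68 was not analysed here, lacking a probe set that names it alone.

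Replicate numbers are not explained by the labels. The deviations of same-numbered arrays from their group means correlated over 0.1 in all 3 pairs for senescent and old cells alone (0.129, 0.519 and 0.669), so a block was fitted there too; this alternative was chosen after seeing the data. With 3 arrays per group, precision is limited by their number.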

Additional observations from a re-analysis of the deposited data

Results flagged for a closer look

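The passage change differed between oxygen levels by the interaction test for 2 of the 44 replication genes (4.55%), both lower, near the 4.37% of all genes called in that direction. Late-passage cells were senescent at 20% oxygen only, so oxygen, growth state and doublings cannot be told apart in this test. For CDC7 the change at 20% oxygen minus that at 3% was -0.76, and for ORC5 it was -0.58. CDC7, the origin firing kinase, was low in all 3 senescent arrays. ORC5 has 3 probe sets, which gave interactions of -0.72, -1.06 and 0.04. The ORC5 call was lost in 12 of 20 alternatives with the same threshold, and the CDC7 call in 1, quantile normalization (-0.47, adjusted p = 0.152).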

How the results depend on the processing

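The direction of every called change held under all alternatives run. The counts of replication genes higher at 3% oxygen ranged from 27 to 33 in young cells and from 26 to 34 at late passage over all settings, arrays left out included. In young cells array weights called 34, of which 1, ORC5, was lower, and called 17.4% of all genes in place of 11.8%. At late passage they called 34, all higher, and 20.9% of all genes in place of 11%. In senescent against young cells at 20% oxygen 10 were called, all lower, and 21 with array weights, of which 14 were lower and 7 higher (ORC3, POLD2, POLD3, RFC1, RPA1, RRM1 and TK1). Array weights called 31.4% of all genes there in place of 12.5%. At an adjusted p under 0.01 in limma 6 were called, with 7.47% of all genes. Leaving out each array gave 6 to 11, with 8.53% to 13% of all genes. In old against young cells at 3% the count was 0, and 1 (GINS2) with the probe set of largest SD; leaving out arrays gave 0 to 0. The interaction gave 2, both lower, and 9 with array weights, of which 5 were higher and 4 lower where 13.6% of all genes were called in place of 6.44%; it gave 1 with a replicate block, 1 with the filter on flat genes, 1 at an adjusted p under 0.01, and 1 to 3 with arrays left out. POLD2 was called higher in it with median centring, quantile normalization, the RNA covariate or without young replicate 2 at 3%, and POLD3 with the probe set of largest SD. The replicate block over all groups ended the calls of FEN1 in senescent cells (adjusted p = 0.0553), of ORC1 and CDT1 at late passage (0.0685 and 0.0592) and of the ORC5 interaction (0.0546); in the senescent and old arrays alone it gave 30 calls in place of 29. With RNA quality as a covariate (the ACTB control's 3' probe set minus its 5' one) the late-passage calls of ORC1, CDT1 and CDC45 were lost (0.0866, 0.064 and 0.062), as they were when the 2 groups were fitted alone; the covariate also ended the ORC5 interaction call (0.0683). With the probe set of largest SD taken for every gene, GINS1 in senescent cells (0.0517), POLD2 in young cells (0.0609) and the ORC5 interaction (0.11) were not called. GINS1 and POLD2 have 1 probe set each, so their changes stayed the same and only the fit over all genes differed. With an intensity trend RFC3 in senescent cells was not called (0.0609). ORC3 was called higher in senescent cells after centring or quantile normalization of the arrays, with the block, with the covariate, with array weights, with 2 groups alone, and without old replicate 1 or 3, and RRM1 with the probe set of largest SD. The causes were not tested. Because the values are centred, signal over background cannot be read, and a dim probe set cannot be told from one that does not respond.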
